A study of Mus musculus with 17 samples.

Results

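The adrenergic receptor genes described here are the 8 listed by symbol, Adra1a, Adra1b, Adra1d, Adra2a, Adra2b, Adra2c, Adrb1 and Adrb3, out of 21640 genes in the count table, and each of the 8 was found there. They were compared by RNA-seq over 17 samples in 4 groups. The first group held 6 samples of arteriolar smooth muscle cells (aSMCs) sorted from SMACreER:Ai47 mice, called Ai47 aSMCs here. These were EGFP-positive, CD31-negative and CD45-negative cells taken from vessels enriched from adult brains, after tamoxifen. The smooth muscle actin promoter, which is also active in other mural cells, drove recombination of the Ai47 reporter. The study reports that the reporter of SMACreER:Ai14 mice marks aSMCs alone. The second held 2 samples of tdTomato-positive aSMCs sorted from SMACreER:Ai14 mice (Ai14 aSMCs), and the third held 3 samples of tdTomato-positive astrocytes sorted from hGFAPCreER:Ai14 mice, in which the human GFAP promoter drives the recombinase. The last group held 6 samples of cerebral cortex homogenate that the labels give as WT, whereas the study's methods describe a fraction of the dissociated cortices kept before sorting. The study's methods place tamoxifen in adults at least a month before RNA-seq, and give the SMACreER:Ai47 mice as adults a few months old. The study counts as many mice as samples for the sorted aSMCs and the cortex, although its legends name either reporter line for that sort. For the Ai14 aSMCs and the astrocytes of this table no source used here says that samples came from separate animals, so their SDs and p-values may measure technical scatter only.

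Adrenergic receptors are G protein-coupled receptors for noradrenaline and adrenaline. Alpha-1 receptors couple mainly to Gq proteins, which activate phospholipase C, release calcium and contract smooth muscle, whereas alpha-2 receptors couple to Gi proteins, which lower cAMP, and beta receptors couple to Gs proteins, which raise it. In brain, noradrenaline comes from axons of the locus coeruleus and acts on neurons, astrocytes and vessels.

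Of the 8 genes, Adra2b had the highest level in every library of Ai47 aSMCs, and Adrb1 had the highest level in 2 of the 3 astrocyte libraries, with the size of its mean resting on 1 of them. Adra2b, the alpha-2B receptor, averaged 279.95 ± 139.8 CPM (SD, n = 6) in Ai47 aSMCs, 1.82 ± 0.607 CPM (SD, n = 2) in Ai14 aSMCs, 0 in astrocytes (n = 3) and 0.0208 ± 0.0509 CPM (SD, n = 6) in cortex. Adrb1 encodes the beta-1 receptor and averaged 108 ± 182 CPM (SD, n = 3) in astrocytes and 3.46 ± 2.97 CPM (SD, n = 6) in cortex. No other member had a group mean above the 15.2 ± 15.3 CPM (SD, n = 6) of Adra1a in Ai47 aSMCs.

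Levels are CPM, counts scaled to a common library size, with TMM factors (which correct each library for its composition) from all 17 samples. Library totals were 41499087 to 53643624 counts in Ai47 aSMCs, 14870507 and 14979228 in Ai14 aSMCs, 4537137 to 7390630 in astrocytes and 5397905 to 7288036 in cortex. Mitochondrial genes took 0.214% to 0.559% of counts in Ai47 aSMCs, 16.8% and 17.6% in Ai14 aSMCs, 10.7% to 12.5% in astrocytes and 35.7% to 72.9% in cortex. In 1 library, 3 counts were worth 0.109 to 0.171 CPM in Ai47 aSMCs, 0.0909 and 0.0913 CPM in Ai14 aSMCs, 0.152 to 0.381 CPM in astrocytes and 0.239 to 0.775 CPM in cortex. The TMM factors were 0.423 to 0.551 in Ai47 aSMCs, 2.21 in both libraries of Ai14 aSMCs, 1.52 to 2.68 in astrocytes and 0.697 to 1.87 in cortex. Scaling by library totals alone therefore moved the median log2 fold change of all genes by -1.45 between Ai47 aSMCs and cortex, by 0.86 between Ai14 aSMCs and cortex, by 0.88 between astrocytes and cortex and by -2.18 between Ai47 and Ai14 aSMCs. The share of calls that were higher then became 33.9% in place of 57.3%, 90.4% in place of 66.6%, 60.8% in place of 42.4% and 7.48% in place of 37.3% in these 4 comparisons.

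The smooth muscle markers summed to 6330 to 7495 CPM in Ai47 aSMCs and 10947 and 11684 CPM in Ai14 aSMCs, against 47.9 to 189 CPM in cortex. Acta2, Myh11 and Mylk carried most of the sums of both aSMC sorts. Acta2 alone had a higher mean in Ai47 than in Ai14 aSMCs (3266 and 2624 CPM). Other means were lower in Ai47 aSMCs, such as Tagln (13.6 and 247 CPM), Tpm2 (67.0 and 711 CPM) and Lmod1 (16.4 and 135 CPM). The same held for Smtn (15.6 and 103 CPM), Cnn1 (12.9 and 59.8 CPM) and Myl9 (210 and 835 CPM). In the astrocyte group the picture was mixed. Aqp4, the astrocyte water channel, was at 460 to 564 CPM in astrocytes and 19.6 to 136 CPM in cortex, and of the 8 astrocyte markers only Aldh1l1 was at 0 in an astrocyte library, ranging from 0 to 58.4 CPM. The sum of these 8 markers was nevertheless lower in astrocytes, at 1141 to 1781 CPM, than in cortex, at 3382 to 18407 CPM, where Slc1a2, the main glial glutamate transporter, made up most of it. Slc1a3, S100b and Aldoc also had lower means in astrocytes (103, 22.8 and 167 CPM) than in cortex (303, 96.8 and 468 CPM). Gfap, Aldh1l1 and Gja1 had higher means in astrocytes (94.0, 19.6 and 225 CPM) than in cortex (36.9, 14.0 and 58.0 CPM). Ai47 aSMCs reached 911 to 1410 CPM on the same list through Gja1, a gap junction gene, at 903 to 1403 CPM. Fibroblast markers summed to 1544 to 2369 CPM in Ai47 aSMCs, 110 and 152 CPM in Ai14 aSMCs, 1.06 to 7.87 CPM in astrocytes and 15.7 to 42.2 CPM in cortex, with Pdgfra at 0 in Ai47 aSMCs, and their part in the receptor levels was not tested. Pericyte markers summed to 2716 to 5941 CPM in Ai47 aSMCs, 7559 and 10731 CPM in Ai14 aSMCs, 9.27 to 17.6 CPM in astrocytes and 268 to 730 CPM in cortex. Rgs5 made up most of the pericyte sum in both aSMC sorts, and the part of pericyte markers in the receptor levels was not tested. Since these are bulk samples, fewer cells that express a receptor and less of its RNA per cell cannot be told apart.

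**Figure D1:**
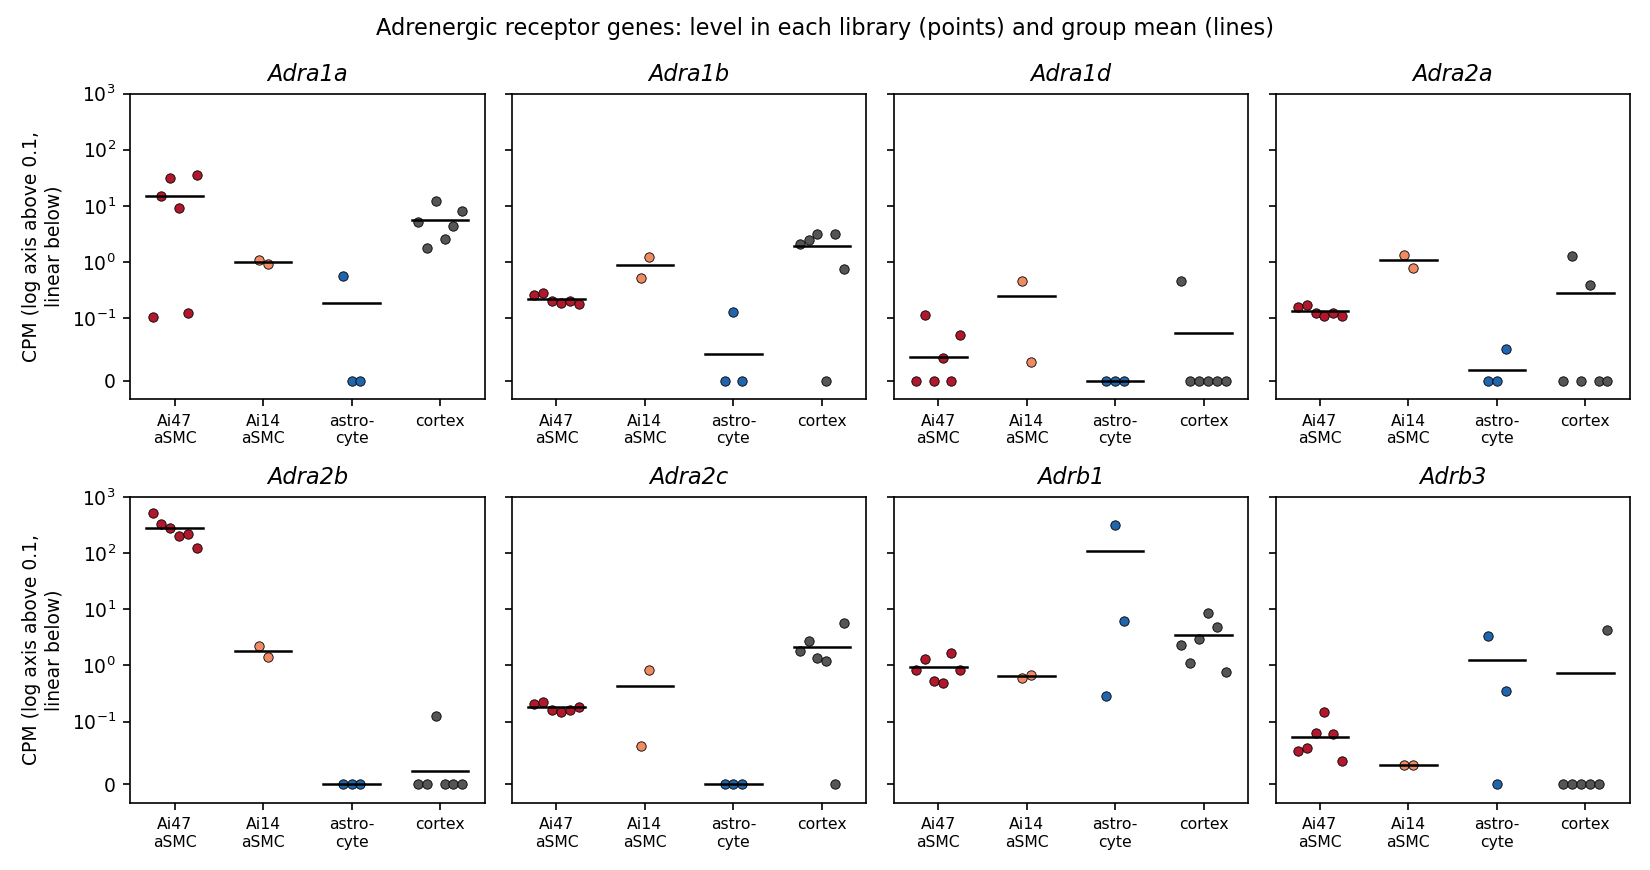
Level of each adrenergic receptor gene in CPM (log axis above 0.1, linear below) in every library (points) of Ai47 aSMCs, Ai14 aSMCs, astrocytes and cortex, with group means as lines. Adra2b stands at 123 to 525 CPM in the 6 libraries of Ai47 aSMCs and at 0 in the 3 astrocyte libraries, and the Adrb1 mean of astrocytes rests on 1 library at 318 CPM.

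The stretches of 250 bases before the RefSeq start of the genes with the highest group means, Adra2b and Adrb1, are shown because these genes have the largest levels measured, in GRCm38.p6, on the forward strand, with GC boxes (GGGCGG on either strand) in capitals. The Adra2b stretch is chr2:127362929-127363178 and the Adrb1 stretch is chr19:56721867-56722116.
Adra2b: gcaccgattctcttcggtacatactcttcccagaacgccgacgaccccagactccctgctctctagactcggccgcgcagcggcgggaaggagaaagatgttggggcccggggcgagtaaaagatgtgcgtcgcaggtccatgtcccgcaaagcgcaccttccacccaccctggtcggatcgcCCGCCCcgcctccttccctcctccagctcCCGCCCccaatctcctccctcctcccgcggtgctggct
Adrb1: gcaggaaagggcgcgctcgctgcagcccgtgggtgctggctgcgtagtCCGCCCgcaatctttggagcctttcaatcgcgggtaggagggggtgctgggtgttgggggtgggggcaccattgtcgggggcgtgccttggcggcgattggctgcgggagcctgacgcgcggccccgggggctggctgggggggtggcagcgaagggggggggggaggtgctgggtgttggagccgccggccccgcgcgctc
Both stretches were GC-rich, at 66.0% for Adra2b and 74.0% for Adrb1, against a median of 52.4% over the 32851 stretches of the same length in the table. The Adra2b stretch held 2 GC boxes and the Adrb1 stretch held 1, and 32.7% of all such stretches held at least 1. The CArG box, the motif that serum response factor binds at smooth muscle genes, occurred in neither (1.47% of all stretches on either strand), nor did TATAAA (12.4%). These are matches of letters only, and no data on binding or chromatin were measured.

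Among the alpha-2 genes, Adra2b (ENSMUSG00000058620.5, chr2:127363208-127367221 in GRCm38, forward strand, 1 exon) was the one gene of the 8 that passed the test as higher in both aSMC sorts than in cortex. In its 6 libraries of Ai47 aSMCs the level was 123 CPM at the lowest, 249 CPM at the median and 525 CPM at the highest. The 2 libraries of Ai14 aSMCs had 2.25 and 1.39 CPM, from 74 and 46 counts. The 3 astrocyte libraries had no count, and 1 of the 6 cortex libraries, replicate 3, had 1 count. Ai47 aSMCs, Ai14 aSMCs and cortex thus fell in a clear order with no overlap, while astrocytes and cortex both lay at the floor and were not separated.

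The ratio of pooled levels was 11454 between Ai47 aSMCs and cortex (95% counting interval 2056 to 452429, exact Clopper-Pearson) and 79.4 between Ai14 aSMCs and cortex (14.0 to 3162). Against the astrocytes, with 3 counts over the group as the floor, Adra2b was at least 3361-fold higher in Ai47 aSMCs and at least 23.3-fold higher in Ai14 aSMCs. Intervals and floors cover counting error only. The adjusted p of the quasi-likelihood F-test in edgeR (Benjamini-Hochberg) was 3.44e-10 between Ai47 aSMCs and cortex (higher in 6 of 6 libraries) and 3.19e-04 between Ai14 aSMCs and cortex (higher in 2 of 2). The background matters here, since 33.6% of the 11548 genes tested were called higher in Ai47 aSMCs than in cortex and 3.97% of 14927 were called higher in Ai14 aSMCs. Adra2b passed the filter on low counts of the first comparison only through the Ai47 libraries, so a gene that passed in this way had to differ, and its p adds nothing to the counts themselves.

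The aSMC sorts also differed from each other. The log2 fold change of Adra2b between Ai47 and Ai14 aSMCs was 7.26 (standard error 1.03, edgeR adjusted p = 6.22e-05), and Adra2b was the only one of 7 tested members called there, against a background of 9.55% higher and 16.0% lower. Reporter, sort, library depth and levels of smooth muscle markers differ together between these sorts and cannot be told apart. Summed as 1 library, the 6 columns of Ai47 aSMCs held 36982 counts of Adra2b, against 1 count in all of cortex. Adra2b had to differ from cortex in that fit too, so its call there is no sign of stability.

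Adra2a (ENSMUSG00000033717.6, chr19:54044151-54048982) and Adra2c (ENSMUSG00000045318.6, chr5:35278319-35281763) encode the alpha-2A and alpha-2C receptors, known as the autoreceptors that limit noradrenaline release. Adra2a had 1.34 and 0.788 CPM in Ai14 aSMCs, its highest group. In Ai47 aSMCs it had 3 counts in each of the 6 libraries, or 0.109 to 0.171 CPM, in astrocytes 1 count in all, and in cortex 16 counts in replicate 2, 2 in replicate 4 and none in the other 4. The ranges of Ai14 aSMCs and cortex overlapped, and the difference was not called (log2 fold change 1.81, standard error 1.39, edgeR adjusted p = 0.524).

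Adra2c had its highest mean in cortex. Astrocytes had no count of Adra2c in any library, against 0 to 5.67 CPM with a median of 1.60 CPM in cortex. This put astrocytes at least 28.5-fold lower than cortex. The difference passed the test (edgeR adjusted p = 0.00458) against a background of 19.8% of genes lower in astrocytes. In the fit of all 17 samples Adra2c passed the filter on low counts only through the other groups. Its p against cortex thus adds nothing to the counts themselves. Ai14 aSMCs had 0.0609 and 0.818 CPM, within the cortex range. Ai47 aSMCs had 4 counts in 5 libraries and 5 in the other, 0.147 to 0.228 CPM, and Adra2c did not pass the filter on low counts of that comparison with cortex. It was called lower there with no filter (log2 fold change -3.18, edgeR adjusted p = 0.0117) and in the fit of all 17 samples (log2 fold change -3.50, edgeR adjusted p = 0.0102), but not with the Ai47 columns summed as 1 library (0.370).

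Between the aSMC sorts and astrocytes, Adra2c passed as higher in both (edgeR adjusted p = 0.0378 for Ai47 aSMCs and 0.0458 for Ai14 aSMCs). With 3 counts over the astrocytes as the floor, it was at least 2.27-fold higher in Ai47 aSMCs and 5.63-fold higher in Ai14 aSMCs. Since astrocytes had no count, Adra2c passed the filter only through the other groups. Leaving out any 1 of the 3 astrocyte libraries ended the call in Ai47 aSMCs (edgeR adjusted p = 0.0691, 0.0553 and 0.0851 without replicates 1, 2 and 3). In Ai14 aSMCs, leaving out any 1 library of either group gave an edgeR adjusted p of 0.0647 without replicate 7, 0.395 without replicate 8, and 0.0867, 0.0809 and 0.0895 without astrocyte replicates 1, 2 and 3.

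**Figure D2:**
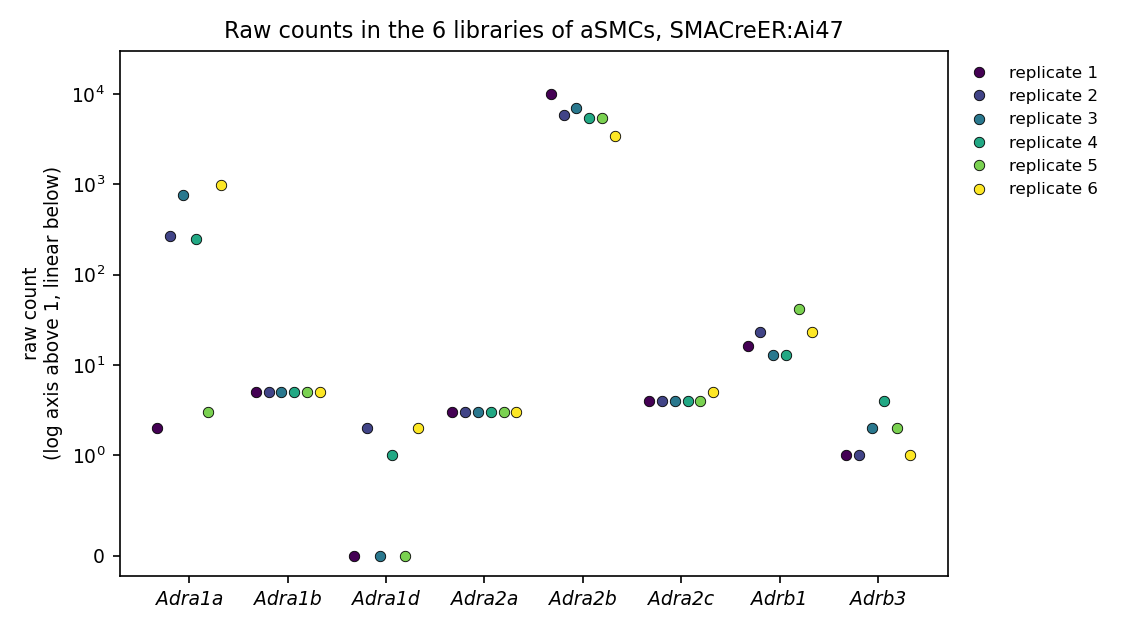
Raw counts (log axis above 1, linear below) of the 8 genes in the 6 libraries of Ai47 aSMCs, coloured by replicate. Adra1b stands at 5 and Adra2a at 3 in every library, while Adra1a runs from 2 to 988 and Adra2b from 3381 to 10012.

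The low members showed a second feature in Ai47 aSMCs: the same raw count in all 6 columns. Adra1b had 5 counts and Adra2a had 3 counts in every one. Of the 10884 genes with at least 3 counts in each of these columns, 96 had 1 identical count in all 6, whereas none of 7775 such genes did so in cortex. Among 2364 genes whose mean count in Ai47 aSMCs lay within 2-fold of Adra1b's, 78 had the same count in all 6. Such counts carry no spread between samples, and the SD in CPM of these genes reflects the scaling alone. Whether the 6 columns are independent libraries could not be settled, so every n of 6, SD and p-value of Ai47 aSMCs assumes that they are.

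Of the alpha-1 genes, Adra1a (ENSMUSG00000045875.13, chr14:66635251-66771168) encodes the alpha-1A receptor, which contracts small arteries. It was on in some libraries of Ai47 aSMCs and nearly off in others. Replicates 2, 3, 4 and 6 had 265, 757, 247 and 988 counts, or 15.1, 30.7, 9.10 and 35.9 CPM, whereas replicates 1 and 5 had 2 and 3 counts, or 0.105 and 0.121 CPM. The highest count was 494 times the lowest, a ratio that 2.98% of the 2883 genes of like mean count reached. In the same 6 libraries the smooth muscle marker sum ran from 6330 to 7495 CPM, with 7495 and 7292 CPM in libraries 1 and 5. Acta2, Myh11 and Mylk, with means of 3266, 2176 and 1044 CPM, carried most of that sum. Lower markers varied more, with Cnn1 at 3.51 to 25.8 CPM, Smtn at 7.30 to 29.8 CPM and Lmod1 at 8.29 to 27.5 CPM. The part of cell content in the Adra1a level was not tested.

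Over the 6 libraries of Ai47 aSMCs the median of Adra1a was 12.1 CPM, against 1.75 CPM at the lowest, 4.76 CPM at the median and 12.2 CPM at the highest in cortex. The range of Ai47 aSMCs reached beyond that of cortex on both sides, and the difference was not called (log2 fold change 1.48, standard error 1.01, edgeR adjusted p = 0.225). Ai14 aSMCs had 1.10 and 0.909 CPM, below every cortex library, but the difference was not called either (log2 fold change -2.49, standard error 1.79, edgeR adjusted p = 0.481). Astrocytes had 6 counts in replicate 1 and none in replicates 2 and 3.

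Adra1a was lower in astrocytes than in cortex (log2 fold change -4.90, standard error 1.78, edgeR adjusted p = 0.0383) in 3 of 3 libraries, a call that ended without astrocyte replicate 2 (0.0898) or 3 (0.0811) and with library totals alone (0.0937). It was higher in Ai47 aSMCs than in astrocytes (log2 fold change 6.32, standard error 1.91, edgeR adjusted p = 0.00975), although replicates 1 and 5 of Ai47 aSMCs lay below astrocyte replicate 1 at 0.562 CPM, and the call ended with library totals alone (0.0582) and with only the 2 groups fitted (0.0507). In Ai14 aSMCs the same comparison was not called (log2 fold change 2.40, standard error 1.80, edgeR adjusted p = 0.372).

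Adra1b (ENSMUSG00000050541.14, chr11:43774606-43901210), the alpha-1B receptor gene, had its highest mean in cortex. Ai47 aSMCs had 0.182 to 0.285 CPM and Ai14 aSMCs had 0.517 and 1.24 CPM, against 0 to 3.12 CPM with a median of 2.26 CPM in cortex. Both sorts lay within the cortex range, and Ai47 aSMCs lay below Ai14 aSMCs. Astrocytes had 1 count in 3 libraries, and the ratio of pooled levels of cortex over astrocytes was 79.2 (95% counting interval 13.9 to 3164). The difference between astrocytes and cortex passed the test (edgeR adjusted p = 0.0144), while that between Ai14 aSMCs and cortex did not (log2 fold change -1.12, standard error 1.42, edgeR adjusted p = 0.742). With 1 count in astrocytes, Adra1b passed the filter of that fit only through the other groups. Its p between astrocytes and cortex thus adds nothing to the counts themselves. Between Ai47 aSMCs and cortex Adra1b failed the filter, and was called lower with no filter (log2 fold change -2.76, edgeR adjusted p = 0.0222) and in the fit of all 17 samples (log2 fold change -3.09, edgeR adjusted p = 0.0158), but not with the Ai47 columns summed as 1 library (0.431).

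Adra1d (ENSMUSG00000027335.9, chr2:131545850-131562283) encodes the alpha-1D receptor, which acts in the contraction of large arteries in rodents, and was close to absent. Ai14 aSMCs had 15 counts in replicate 7 and 1 in replicate 8, Ai47 aSMCs had 0 to 2 counts, astrocytes had none and cortex had 4 counts in replicate 1 and none in the other 5. It passed the filter in no comparison. An exon of Gm14285 lies over it on the opposite strand, and whether counting used the strand is not stated, so reads of the pair cannot be told apart.

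Among the beta genes, Adrb1 (ENSMUSG00000035283.5, chr19:56722199-56733113) varied most in the astrocytes. The 3 libraries had 0.281, 318 and 6.16 CPM, from 3, 2509 and 122 counts. Cortex had 0.756 CPM at the lowest, 2.64 CPM at the median and 8.70 CPM at the highest, so that 1 astrocyte library lay below the cortex range, 1 within it and 1 far above. The test called Adrb1 higher in astrocytes than in cortex (log2 fold change 4.98, standard error 1.16, edgeR adjusted p = 0.00295), where 14.6% of genes were called higher. Without astrocyte replicate 2 the mean of astrocytes was 3.22 CPM, the log2 fold change was -0.29 and the edgeR adjusted p was 0.883. Astrocyte replicate 2 had the fewest genes with counts of the 17 libraries, 9083, against 11405 and 12827 in replicates 1 and 3. Its TMM factor was 1.52, against 2.36 and 2.68. The astrocyte marker sum of that replicate, 1781 CPM, was the highest of the 3 (1474 and 1141 CPM in replicates 1 and 3). The same held for its endothelial marker sum, 1257 CPM (1167 and 515 CPM). Slc2a1, at 490 to 1214 CPM, made up most of the endothelial sum in astrocytes. Pecam1 was at 23.4 to 39.8 CPM there, and Flt1 and Esam were at most 0.381 and 0.127 CPM. The part of these marker sums, and of the number of genes counted, in the Adrb1 level was not tested.

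In the aSMC sorts Adrb1 was low. Ai47 aSMCs had 0.479 CPM at the lowest, 0.838 CPM at the median and 1.70 CPM at the highest, and Ai14 aSMCs had 0.609 and 0.667 CPM. Adrb1 was called lower in Ai47 aSMCs than in cortex (log2 fold change -1.82, standard error 0.72, edgeR adjusted p = 0.0400), against 25.0% of genes called lower. The ranges overlapped, and the call ended with mitochondrial genes removed (edgeR adjusted p = 0.0547), with no filter (0.0921), with all 17 samples in 1 fit (0.119), with the Ai47 columns summed as 1 library (0.532), and without replicate 1, 3, 4 or 6 of Ai47 aSMCs (0.0536, 0.0655, 0.0616 and 0.0531) or replicate 1, 3, 4 or 5 of cortex (0.0545, 0.0606, 0.161 and 0.0943). Between Ai14 aSMCs and cortex the difference was not called (log2 fold change -2.41, standard error 1.54, edgeR adjusted p = 0.411).

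Adrb1 was also called lower in both aSMC sorts than in astrocytes (log2 fold changes -6.83 and -7.39, standard errors 1.24 and 2.08, edgeR adjusted p = 1.67e-04 for Ai47 aSMCs and 0.0186 for Ai14 aSMCs). Both calls ended without astrocyte replicate 2 (edgeR adjusted p = 0.270 and 0.275), and that of Ai14 aSMCs also without replicate 7 (0.143) or 8 (0.150). Astrocyte replicate 1, at 0.281 CPM, lay below every library of both aSMC sorts.

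Adrb3 (ENSMUSG00000031489.15, chr8:27225776-27250616) encodes the beta-3 receptor, best known from fat tissue. Ai47 aSMCs had 1 to 4 counts and Ai14 aSMCs had 1 in each library. The 3 astrocyte libraries had 36, 0 and 7 counts, and cortex had 23 in replicate 6 and none in the other 5, so that single libraries carried both means. No comparison called it, and the direction between astrocytes and cortex turned with the libraries included: the log2 fold change was 0.80 (standard error 1.65, edgeR adjusted p = 0.742), -2.07 without astrocyte replicate 1, and 7.31 without cortex replicate 6, where it passed (edgeR adjusted p = 0.00820). Of its exon sequence, 22.0% of stretches of 31 bases also occurred in other genes, the largest share among the members, and Gm45470 overlaps it on the opposite strand.

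**Figure D3:**
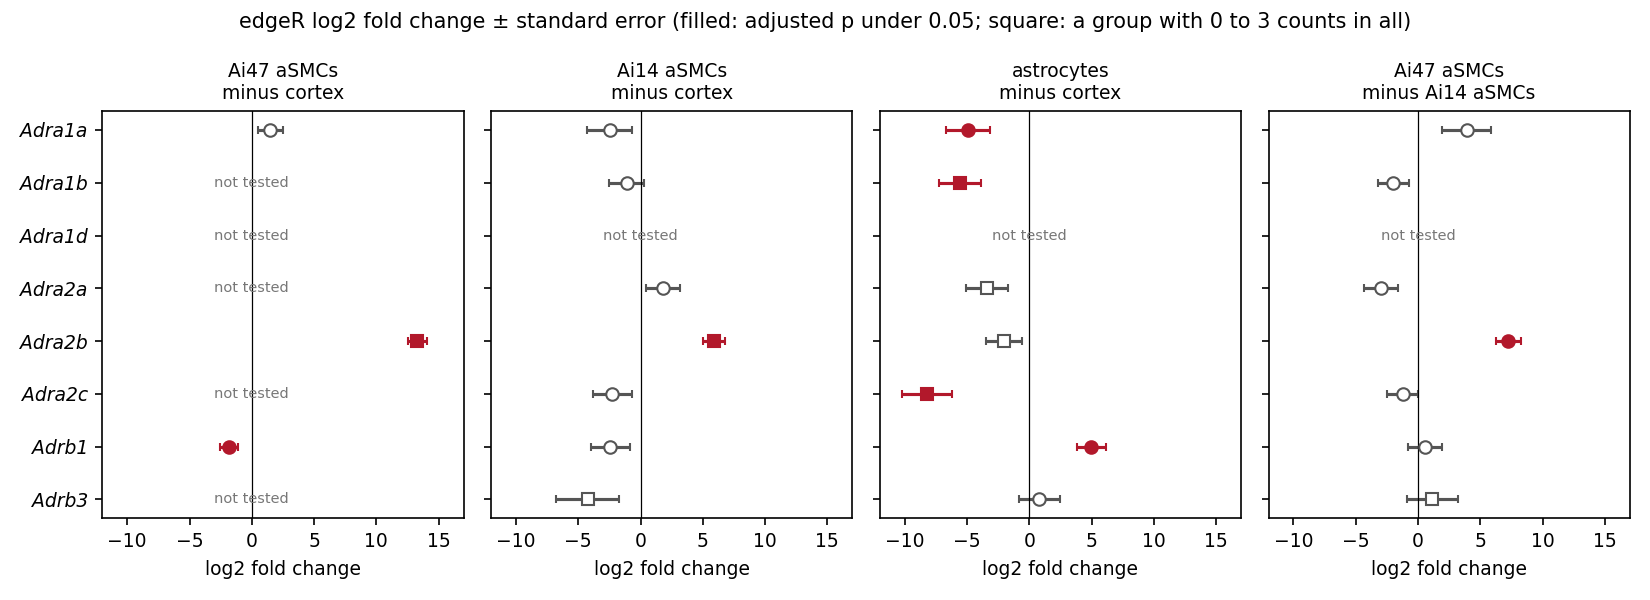
Log2 fold change with its standard error from edgeR for the 8 genes in 4 comparisons (filled: adjusted p under 0.05). Squares mark a comparison in which 1 group had 0 to 3 counts in all, where the fitted value depends on the prior count and sets no size. Adra2b is filled and to the right of 0 in all panels but that of astrocytes, where Adrb1 is to the right.

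By comparison, 3 of the 8 members passed the filter between Ai47 aSMCs and cortex, and 1 was called higher (Adra2b) and 1 lower (Adrb1), where 33.6% of all genes were called higher and 25.0% lower, so these counts are close to the background. In the fit of all 17 samples 7 members were tested, and Adra1d was not. Between Ai14 aSMCs and cortex 1 was called higher and none lower, where 2.0% of all genes were called lower (edgeR, unadjusted p under 0.05 for 1 member in all). Between astrocytes and cortex 1 was called higher and 3 lower, Adra1a, Adra1b and Adra2c, against backgrounds of 14.6% and 19.8%. Between Ai47 aSMCs and astrocytes 3 were called higher and 1 lower, against backgrounds of 26.1% and 23.8%, and between Ai14 aSMCs and astrocytes 2 were higher and 1 lower, against 13.6% and 3.56%. The first 3 of these comparisons share the cortex libraries and the last 2 share the astrocyte libraries. Adra1a, Adra1b, Adra2b and Adra2c had 0 to 6 counts over the astrocyte libraries, so they passed the filter only through the other groups. Their calls against astrocytes are no support beyond the counts themselves.

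Per kilobase of exon, the measure by which genes can be compared, Adra2b took 87.1% to 99.7% of the summed level of the 8 genes in the libraries of Ai47 aSMCs. Its level of 69.7 ± 34.8 CPM per kb (SD, n = 6) was followed by Adra1a at 1.74 ± 1.75 CPM per kb, with no overlap, and then by Adrb1 at 0.280 ± 0.140 CPM per kb, which overlapped Adra1a. In Ai14 aSMCs the order was flatter. Adra2b came first at 0.454 ± 0.151 CPM per kb (SD, n = 2), or 24.1% and 35.9% of the sum, but its range overlapped that of Adra1b at 0.260 ± 0.152 CPM per kb, and neighbours from there down to Adra1a overlapped as well.

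In astrocytes the share of Adrb1 was 7.25% to 99.96%. It came first there at 32.0 CPM per kb with an SD of 53.8 (n = 3), and its range overlapped that of Adrb3, next at 0.368 CPM per kb with an SD of 0.549. In cortex Adrb1 came first at 1.02 ± 0.877 CPM per kb (SD, n = 6), followed by Adra1a at 0.649 ± 0.444, Adra2c at 0.617 ± 0.565 and Adra1b at 0.567 ± 0.378 CPM per kb, and each neighbour in this order overlapped the next.

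**Figure D4:**
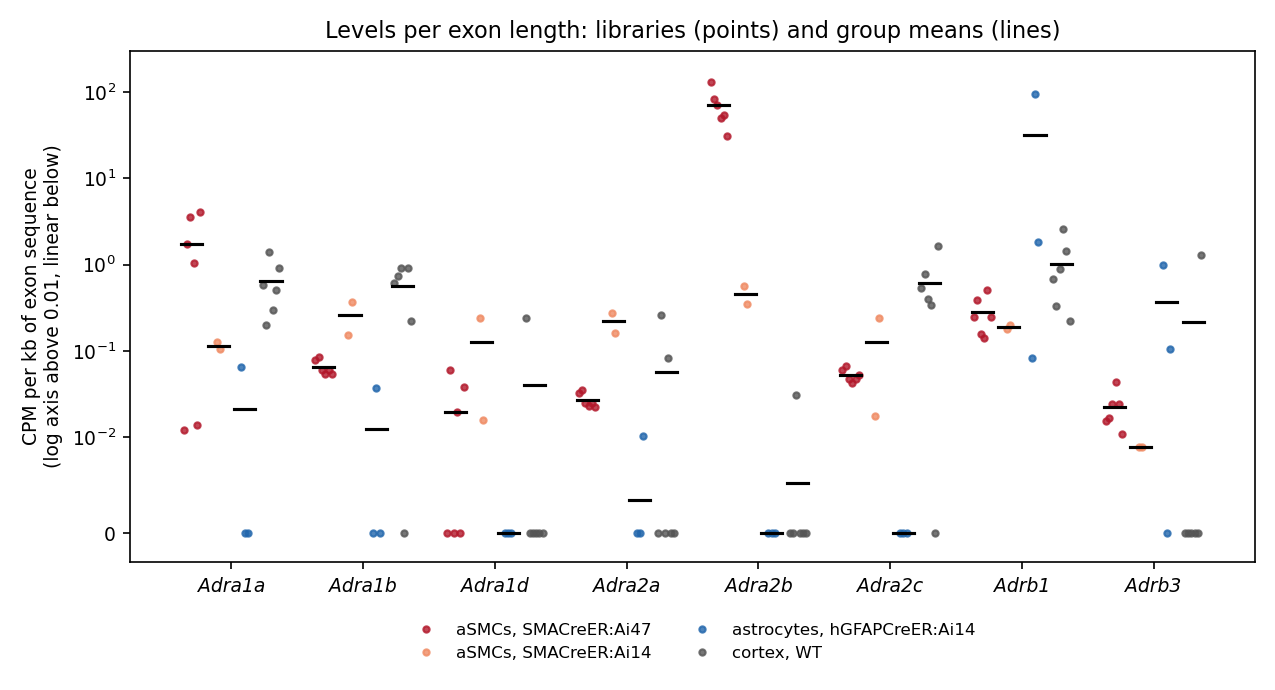
Level per kb of exon sequence (log axis above 0.01, linear below) of the 8 genes in each library (points), with group means as lines. Adra2b in Ai47 aSMCs lies at 30.6 to 131 CPM per kb, above every other member in these libraries, whereas in cortex the libraries of Adrb1, Adra1a, Adra2c and Adra1b overlap.

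For each member with a mean of at least 1 CPM in a group, the genes of most similar pattern over the 17 libraries were taken from 13840 named genes by Pearson's r of log2(CPM + 0.5), as a description only, since libraries of a group share their source. Adra2b was matched most closely by 3 olfactory receptor genes, Olfr575 (r = 0.996), Olfr1122 (0.996) and Olfr1312 (0.995), which averaged 3.24, 14.8 and 12.7 CPM in Ai47 aSMCs and 0.0133, 0.0133 and 0.0929 CPM in cortex. Adrb1 was matched by Efcab6 (0.896), Glipr1l3 (0.883) and Inava (0.879). Adra1a was matched less closely, by Nrros (0.837), Gimap6 (0.832) and Ankra2 (0.827). Those of Adra1b were Shd (0.940), Smyd1 (0.911) and Rnf112 (0.908), those of Adra2c Ndst4 (0.930), Plppr2 (0.926) and Gjb6 (0.924), those of Adra2a Cstad (0.840), Vipr2 (0.833) and Esrp2 (0.830), and those of Adrb3 Pcdhb10 (0.932), Fbxl6 (0.916) and Zfp286 (0.842).

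Around the receptors, 5 lists of 70 pathway genes were read in the comparisons with cortex. Their counts stand beside the shares of all genes called, which were 33.6% higher and 25.0% lower in Ai47 aSMCs, 3.97% and 2.0% in Ai14 aSMCs, and 14.6% and 19.8% in astrocytes. In the list of noradrenaline synthesis, transport and breakdown, 5 of 13 genes were tested between Ai47 aSMCs and cortex, 1 higher and 4 lower, with a median log2 fold change of -2.22 against 0.32 over all genes. Slc18a2, the vesicular monoamine transporter, was at 749 ± 153 CPM in Ai47 aSMCs and 3.47 ± 3.22 CPM in cortex (n = 6 each, SD; log2 fold change 7.85, edgeR adjusted p = 1.74e-07). Ai14 aSMCs had only 1.77 ± 1.65 CPM (SD, n = 2) of Slc18a2, and astrocytes had no count. Dbh, the enzyme that makes noradrenaline, had no count in any of the 17 libraries.

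In the same list, none of 6 genes tested was called in edgeR between Ai14 aSMCs and cortex (1 at an unadjusted p under 0.05, and 2 lower in DESeq2), and 3 of 6 were lower in astrocytes than in cortex. Maoa, which oxidises noradrenaline, was at 5.35 ± 2.67 CPM in astrocytes (SD, n = 3) and 21.6 ± 7.06 CPM in cortex (SD, n = 6; log2 fold change -2.01, edgeR adjusted p = 0.0419).

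Of 12 G alpha subunit genes, 10 were tested between Ai47 aSMCs and cortex, 2 higher and 5 lower (median log2 fold change -0.93). Gna11, a Gq family subunit through which alpha-1 receptors can act, was at 2762 ± 617 CPM in Ai47 aSMCs and 27.5 ± 10.4 CPM in cortex (n = 6 each, SD; log2 fold change 6.79, edgeR adjusted p = 1.66e-10). Gnai1, a Gi subunit, was at 4.89 ± 9.86 CPM in Ai47 aSMCs and 78.5 ± 29.3 CPM in cortex (n = 6 each, SD; log2 fold change -4.05, edgeR adjusted p = 0.00860). None of 11 was called in edgeR between Ai14 aSMCs and cortex (1 at an unadjusted p under 0.05, and 1 lower in DESeq2). In astrocytes 1 was higher and 4 were lower, Gnao1 among them at 19.3 ± 16.7 CPM (SD, n = 3) against 372 ± 105 CPM in cortex (SD, n = 6; log2 fold change -4.26, edgeR adjusted p = 0.00197).

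Of 13 genes of phospholipase C beta, IP3 receptors and protein kinase C, the arm below Gq, 1 was higher and 6 were lower in Ai47 aSMCs than in cortex (median log2 fold change -1.48). Prkcd, a protein kinase C isoform, was at 208 ± 47.0 CPM in Ai47 aSMCs and 9.70 ± 5.27 CPM in cortex (n = 6 each, SD; log2 fold change 4.51, edgeR adjusted p = 1.23e-07), and Prkcb at 0.0189 ± 0.0208 CPM in Ai47 aSMCs and 75.4 ± 20.2 CPM in cortex (n = 6 each, SD; edgeR adjusted p = 3.07e-10). In Ai14 aSMCs Plcb4 was higher than in cortex, at 216 ± 5.96 CPM (SD, n = 2) against 21.1 ± 9.76 CPM in cortex (SD, n = 6; log2 fold change 3.36, edgeR adjusted p = 0.0271), and Prkcb was lower, at 1.47 ± 0.541 CPM (SD, n = 2; log2 fold change -5.67, edgeR adjusted p = 0.00246). In astrocytes 8 of 13 were lower than in cortex and none was higher, with Itpr1, which encodes an IP3 receptor, at 0.707 ± 0.374 CPM in astrocytes (SD, n = 3) and 176 ± 98.3 CPM in cortex (SD, n = 6; log2 fold change -7.92, edgeR adjusted p = 3.74e-06) and Prkcb without a count in astrocytes.

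Of 25 genes of adenylyl cyclases, protein kinase A and cAMP phosphodiesterases, which make, read and break down cAMP, 23 were tested between Ai47 aSMCs and cortex, 9 higher and 7 lower (median log2 fold change 0.56). Adcy1 and Adcy2, cyclases of neurons, were among the lower ones, Adcy1 at 0.104 ± 0.0779 CPM in Ai47 aSMCs and 185 ± 55.8 CPM in cortex (n = 6 each, SD; log2 fold change -10.64) and Adcy2 at 0.347 ± 0.184 CPM in Ai47 aSMCs and 30.2 ± 16.9 CPM in cortex (n = 6 each, SD; log2 fold change -6.31). In Ai14 aSMCs 4 were higher and 1 was lower than in cortex. Pde3a, a phosphodiesterase of vascular muscle, was at 1020 ± 7.56 CPM (SD, n = 2) in Ai14 aSMCs and 18.5 ± 13.9 CPM in cortex (SD, n = 6; log2 fold change 5.78, edgeR adjusted p = 0.00261), and Adcy1 at 4.88 ± 0.723 CPM (SD, n = 2; log2 fold change -5.24, edgeR adjusted p = 0.00105). In astrocytes 1 was higher and 12 were lower than in cortex, and neither Adcy1 nor Prkar1b had a count in astrocytes.

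Of 7 genes of receptor kinases and arrestins, which switch active receptors off, 6 were tested between Ai47 aSMCs and cortex, 1 higher and 3 lower (median log2 fold change -2.29). Grk4 was at 72.5 ± 26.3 CPM in Ai47 aSMCs and 3.73 ± 2.82 CPM in cortex (n = 6 each, SD; log2 fold change 4.40, edgeR adjusted p = 4.05e-06), and Arrb1, an arrestin, at 8.78 ± 7.24 CPM in Ai47 aSMCs and 114 ± 29.3 CPM in cortex (n = 6 each, SD; log2 fold change -3.59, edgeR adjusted p = 6.38e-06). None of 7 was called in edgeR between Ai14 aSMCs and cortex (2 at an unadjusted p under 0.05, and 1 lower in DESeq2). In astrocytes 5 of 7 were lower and none was higher than in cortex, and with library totals alone none of the 7 was called.

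**Figure D5:**
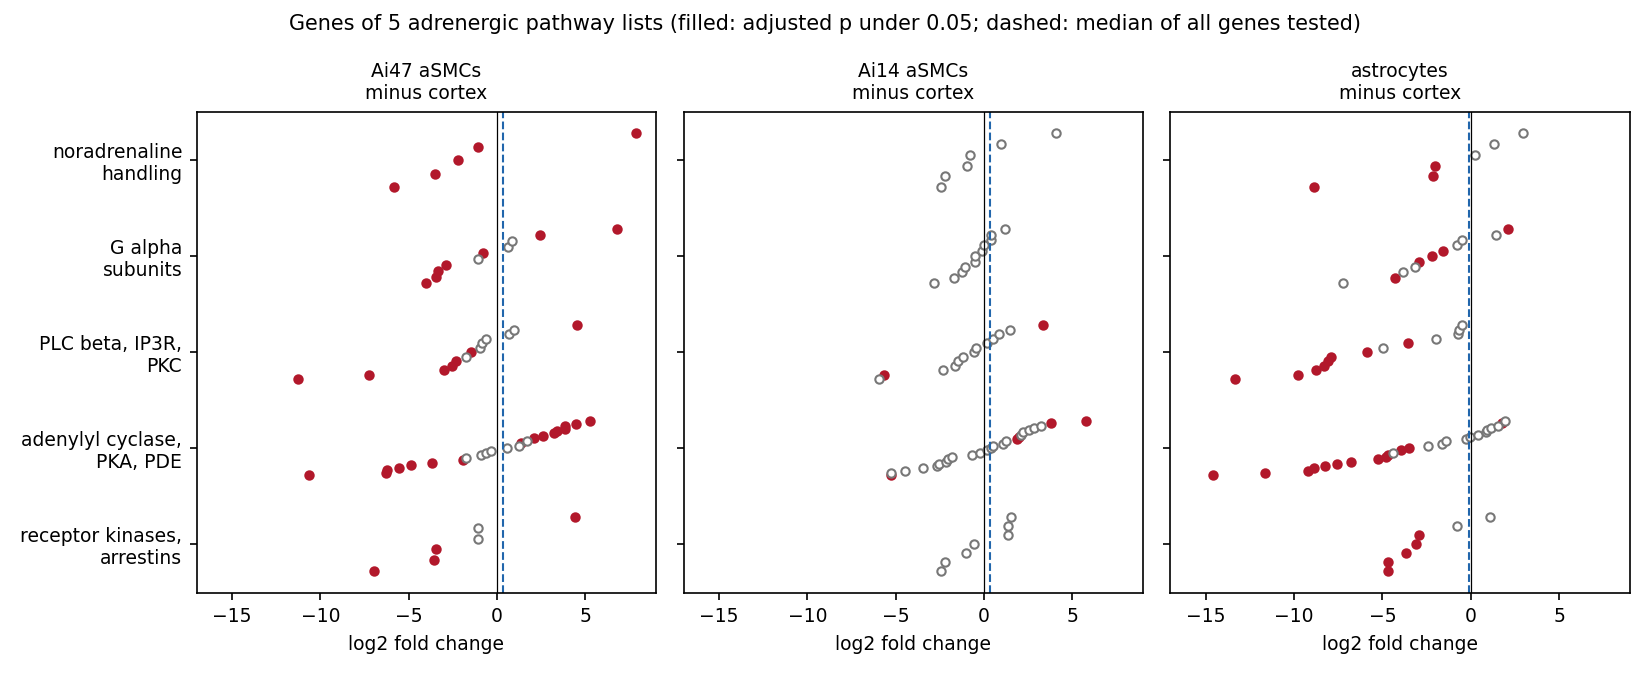
Log2 fold change from edgeR of the tested genes of 5 adrenergic pathway lists in Ai47 aSMCs, Ai14 aSMCs and astrocytes, each minus cortex (filled: adjusted p under 0.05), with the median of all genes tested as a dashed line. Most filled points lie left of 0 in astrocytes, few points are filled in Ai14 aSMCs, and Slc18a2 and Gna11 are the points farthest right in the top 2 rows of Ai47 aSMCs.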

How the data were processed

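RNA-seq counts of 6 samples of Ai47 aSMCs, 2 of Ai14 aSMCs, 3 of astrocytes and 6 of cortex were used, and all 17 columns were mapped by their labels. The deposited table holds raw counts, one whole number for each gene symbol and sample, which the authors had not normalized. Per the labels, libraries were made with NuGEN Ovation kits, and the submitters' processing notes name Salmon 1.4.0, Trim Galore 0.6.7, MultiQC 1.13 and FastQC 0.11.9, with GRCm38, whereas the study's methods name a TruSeq kit, TopHat and htseq-count. Which account applies is unsettled, and the annotation and strand setting were not given in the sources used here. Amplification and trimming choices, and reads shared with overlapping genes, could shift low counts. Coordinates and exon lengths come from GENCODE M21, which matched 97.4% of symbols.

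Differences were tested with edgeR 4.0.16 in R 4.3.3 (filterByExpr with a minimum count of 10, TMM, quasi-likelihood F-test, Benjamini-Hochberg adjusted p under 0.05), over the 12 samples of Ai47 aSMCs and cortex and over all 17 samples for the other 5 comparisons. DESeq2 1.42.0, other scalings and filters, a replicate block and leaving out each library were alternatives. The code was tested on simulated data. Tables and figures were made in Python 3.11.15 (matplotlib 3.10.9, scipy 1.17.1, pandas 2.3.3).

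The members and lists were chosen with earlier results of these data known. Pathway genes named are the 2 with the largest called change and a mean of at least 10 CPM in a group, in each list and comparison, and other genes named, such as Dbh and single markers, were chosen after their values were seen. Some called genes of these lists are given as counts only. A gene of the noradrenaline list that the rule names is not reported here.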

Additional observations from a re-analysis of the deposited data

Results flagged for a closer look

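Single cortex libraries stood apart from the other 5 in 4 of the 16 sets of 6 libraries examined (8 genes in Ai47 aSMCs and in cortex). The rate of about 1 in 20 expected of the rule by chance does not hold for counts this sparse, so no excess over chance can be read from these 4 sets. Adra1d was at 0.456 CPM in cortex replicate 1 and 0 in the others, from 4 counts. Adra2a was at 1.27 CPM in cortex replicate 2, against a mean of 0.0791 CPM in the others. Adra2b was at 0.125 CPM in cortex replicate 3, which is 1 count, and 0 in the others. Adrb3 was at 4.35 CPM in cortex replicate 6, from 23 counts, and 0 in the others. With most libraries at 0, any count stands apart in this way.

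The difference of Adra2b from cortex was not the same in the 2 aSMC sorts. Tested directly, it was larger in Ai47 than in Ai14 aSMCs by 7.26 on the log2 scale (standard error 1.03, edgeR adjusted p = 6.22e-05). The cause was not tested.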

How the results depend on the processing

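Adra2b kept its direction and its call under every alternative run between Ai47 aSMCs and cortex (23 alternatives), Ai14 aSMCs and cortex (17), Ai47 and Ai14 aSMCs (17) and Ai47 aSMCs and astrocytes (20), and lost the call between Ai14 aSMCs and astrocytes in 1 of 13 (edgeR adjusted p = 0.0922 with only the 2 groups fitted). With 1 count in cortex and none in astrocytes, Adra2b passed the filters only through the aSMC libraries, so these calls are no sign of stability. The number of members called changed more. Between Ai47 aSMCs and cortex it was 2, and became 1 with mitochondrial genes removed, with the filter of at least 1 CPM and with the Ai47 columns summed as 1 library, 3 with no filter and 3 in the fit of all 17 samples (both with Adra1b and Adra2c lower and without Adrb1), and 4 with DESeq2, which added Adra1b and Adra2c as lower. Between astrocytes and cortex it was 4, and became 3 with library totals alone (without Adra1a) and 3 with DESeq2 (without Adrb1). Between Ai47 and Ai14 aSMCs it was 1, and became 4 with library totals alone, 2 with DESeq2 and 3 with only the samples of the 2 groups. Between Ai47 aSMCs and astrocytes it was 4, and became 2 with DESeq2, 2 with only the 2 groups and 2 with the Ai47 columns summed. Between Ai14 aSMCs and astrocytes it was 3, and became 0 in edgeR with only the 2 groups (2 of 4 tested at an unadjusted p under 0.05), against 2 with DESeq2. It also became 2 in edgeR with DESeq2 size factors, library totals alone, mitochondrial genes removed, no filter or the filter of at least 1 CPM. Leaving out 1 library gave 1 to 2 members between Ai47 aSMCs and cortex, 1 between Ai14 aSMCs and cortex, 2 to 5 between astrocytes and cortex, 1 between Ai47 and Ai14 aSMCs, 3 to 4 between Ai47 aSMCs and astrocytes and 1 to 2 between Ai14 aSMCs and astrocytes. DESeq2 gave Adrb1 no adjusted p in the comparisons of all 17 samples.

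Same-numbered samples did not deviate together, with correlations after removing group means of -0.0322 to 0.0175 (Ai47 aSMCs and cortex), -0.0505 to 0.0323 (astrocytes and cortex) and -0.0060 to -0.0013 (astrocytes and Ai47 aSMCs). Technical scatter could hide a shared animal, so these values cannot decide whether the numbers pair the samples. With the replicate block, 1 member was called between Ai47 aSMCs and cortex. Over numbers 1 to 3, 0 of 3 tested were called in edgeR between astrocytes and cortex with the block (1 at an unadjusted p under 0.05) and 0 without it (3), while DESeq2 on all samples called 3. Between Ai47 aSMCs and astrocytes 1 was called with the block and 1 without. The fits over numbers 1 to 3 without the block were chosen after seeing the data.

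The sign turned in 7 fits, none of them past the threshold, and the cause was not tested. Adrb3 came to 2.23 between Ai14 aSMCs and cortex without cortex replicate 6, and between astrocytes and cortex to -2.07 without astrocyte replicate 1 and -0.095 without cortex replicates 1 and 2 together. Adrb1 came to -0.29 between astrocytes and cortex without astrocyte replicate 2. Between Ai47 and Ai14 aSMCs, library totals alone gave -1.65 for Adrb1 and -0.77 for Adrb3, and leaving out replicate 8 gave 1.85 for Adra2c. Over all fits that leave out 1 library, these values ran from -4.84 to 2.23 (Adrb3, Ai14 aSMCs and cortex), -2.07 to 7.31 (Adrb3, astrocytes and cortex), -0.29 to 5.47 (Adrb1, astrocytes and cortex) and -1.77 to 1.85 (Adra2c, Ai47 and Ai14 aSMCs). Of the other fits of single members, 570 kept their call and direction, 52 lost the call and 12 gained it. Depth limits Adra1d, Adra2a, Adrb3 and every member but Adrb1 in astrocytes, where the counts were 6 or fewer save for Adrb3.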

Other observations

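Between the 2 aSMC sorts, 9.55% of all genes were called higher and 16.0% lower in Ai47 aSMCs. Of 11 G alpha subunit genes tested, 2 were higher and 2 lower in Ai47 than in Ai14 aSMCs. Gna11 was at 2762 ± 617 CPM (SD, n = 6) in Ai47 aSMCs and 36.6 ± 2.13 CPM (SD, n = 2) in Ai14 aSMCs, and Gnaq at 416 ± 69.9 CPM (SD, n = 6) in Ai47 aSMCs and 34.8 ± 2.46 CPM (SD, n = 2) in Ai14 aSMCs (log2 fold changes 6.24 and 3.58, edgeR adjusted p = 1.06e-04 and 2.28e-04). Of 25 cAMP genes, 3 were higher and 5 lower. Prkaca, the catalytic subunit of protein kinase A, was at 846 ± 122 CPM (SD, n = 6) in Ai47 aSMCs and 58.2 ± 6.77 CPM (SD, n = 2) in Ai14 aSMCs (log2 fold change 3.86, edgeR adjusted p = 2.31e-04), whereas Prkar2b, a regulatory subunit, was at 0 to 0.647 CPM in Ai47 aSMCs (n = 6) and 23.5 and 25.4 CPM in Ai14 aSMCs (n = 2) (log2 fold change -7.33, edgeR adjusted p = 0.00221). With library totals alone, 0 of the 25 cAMP genes were higher and 12 were lower, in edgeR.

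Against astrocytes, 7 of 13 genes of the phospholipase C, IP3 receptor and protein kinase C list were higher and 1 lower in Ai47 aSMCs, where 26.1% of all genes were higher and 23.8% lower, and 7 were higher and none lower in Ai14 aSMCs, where 13.6% were higher and 3.56% lower. Itpr1, the IP3 receptor gene, was at 61.6 ± 28.8 CPM (SD, n = 6) in Ai47 aSMCs, 323 ± 11.3 CPM (SD, n = 2) in Ai14 aSMCs and 0.707 ± 0.374 CPM (SD, n = 3) in astrocytes, with log2 fold changes of 6.40 and 8.79 and edgeR adjusted p of 4.44e-06 and 3.70e-06.

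The olfactory receptor genes that matched Adra2b were looked at as a family after the match was seen. Of 499 genes with an Olfr symbol, 174 had a mean of at least 1 CPM in Ai47 aSMCs, 91 in Ai14 aSMCs, 62 in astrocytes and 62 in cortex. The share of all genes at this level was not taken. The number counted in every library of the group was 312 in Ai47 aSMCs, 312 in Ai14 aSMCs, 76 in astrocytes and 66 in cortex. The Olfr genes summed to 1897 to 4646 CPM in Ai47 aSMCs, 1008 and 1070 CPM in Ai14 aSMCs, 344 to 432 CPM in astrocytes and 352 to 1192 CPM in cortex. These sums rest on TMM factors of 0.423 to 0.551 in Ai47 aSMCs and 2.21 in Ai14 aSMCs. Sums scaled by library totals alone were not taken, so the order of the groups may depend on the scaling. The cause was not tested.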
